A study of Caenorhabditis elegans with 6 samples.

Results

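Nucleotide excision repair removes bulky lesions such as UV photoproducts, and it begins with damage recognition. Recognition was followed here through the mRNA levels of 5 *Caenorhabditis elegans* genes, which were chosen by symbol and matched to their WormBase identifiers: *csb-1*, *csa-1* and *uvs-1* for transcription-coupled repair (TCR), and *xpc-1* and *rad-23* for global repair. All 5 symbols were found among the 46904 genes of the count tables. In TCR, an RNA polymerase II halted at a lesion is the signal. It is bound by CSB, a SWI/SNF-family ATPase, which brings in CSA, the substrate receptor of a cullin-4 ubiquitin ligase, and UVSSA, the mammalian counterpart of *uvs-1*, which helps to bring in TFIIH. In global repair, the XPC protein finds distorted DNA anywhere in the genome in a complex that holds RAD23, a ubiquitin receptor that also carries ubiquitinated proteins to the proteasome. Both routes then share TFIIH, XPA, RPA and the nucleases that cut out the lesion. The roles of XPC, RAD23, CSA and UVSSA in recognition are known mainly from yeast and mammalian cells, and the worm genes are named as their counterparts.

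The RNA came from whole, untreated first-stage (L1) larvae that had been fed on *E. coli* on plates, and poly(A) RNA was sequenced. There were 3 strains with 2 libraries each: wild-type N2, the *csb-1* strain RB1801 with the genotype *csb-1(ok2335)*, and the *xpc-1* strain TG2226 with the genotype *xpc-1(tm3886)*. Each mutant strain is labelled with 1 allele of 1 gene, carried in the whole animal, and no UV was given, so the values describe the resting levels of the recognition genes. The labels do not say whether the replicates were separate cultures. The p-values therefore measure the spread between these libraries, which may be technical.

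Libraries held between 41643033 and 48371365 counts on genes. Replicate 2 of the *csb-1* strain stood apart from replicate 1. The SD of the log2 ratio between the *csb-1* libraries was 2.49 over 18421 genes. The same SD was 0.594 for wild-type and 0.648 for the *xpc-1* strain. Counts of ribosomal protein genes made up 23.4% of *csb-1* replicate 2 and 4.65% of replicate 1. The summed level of the 8 molting genes examined was 37.1 CPM (counts scaled to a common library total) in *csb-1* replicate 2 and 3610 CPM in replicate 1, with 1058 and 1067 CPM in wild-type and 1988 and 2027 CPM in the *xpc-1* strain. Markers of muscle, pharynx, neurons, intestine, epidermis and germ cells were detected in every library, and the summed level of the adult vitellogenin genes lay between 1.03 and 8.96 CPM. In whole larvae, fewer cells of a type and less RNA per cell cannot be told apart. Calls that involve the *csb-1* strain are given with and without each of its libraries, and the part of this difference between the *csb-1* libraries in them was not tested.

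The 5 genes lie on 4 chromosomes of the WBcel235 build. *csb-1* (WBGene00000803) lies on chromosome X from 15861294 to 15865918 on the minus strand and has 3281 exon bases in 10 exon blocks. *csa-1* (WBGene00008403) lies on chromosome II from 9317551 to 9319627 on the minus strand, with 1375 exon bases in 7 blocks. *uvs-1* (WBGene00022812) lies on chromosome V from 7801518 to 7803727 on the minus strand, with 1831 exon bases in 8 blocks. *xpc-1* (WBGene00022296) lies on chromosome IV from 1993089 to 2008993 on the plus strand and has the longest span of the 5 genes, 15905 bases, of which 4463 are exonic in 10 blocks. *rad-23* (WBGene00013924) lies on chromosome II from 11651261 to 11652906 on the minus strand, with 1497 exon bases in 4 blocks. No annotated gene overlapped any of the 5 spans, so no exon base was shared with a gene on either strand.

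The targeted genes were examined first, beside the strain labels. *xpc-1* read 43.5 and 40.1 CPM in the wild-type libraries and 18.04 and 17.93 CPM in the *xpc-1* libraries, scaled with TMM factors (trimmed mean of M values, which correct for differences in composition). Both mutant libraries lay far below both wild-type libraries, and transcript counts remained, 810 and 797 per library. *csb-1* read 20.6 and 22.9 CPM in the wild-type libraries and 17.5 and 8.04 CPM in the *csb-1* libraries. Both *csb-1* libraries were lower than wild-type, but the first only slightly, and 818 and 280 counts remained. The log2 distance from the wild-type mean was -0.31 in replicate 1 and -1.43 in replicate 2. In replicate 2, *csa-1* (-1.23) and *uvs-1* (-0.90) were low too. The *csb-1* level therefore does not settle the label of these libraries. Counts were summed over whole genes, so reads from inside and outside an altered stretch of either gene cannot be told apart.

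Levels were compared between genes in TPM, the usual transcript unit that divides each count by the exon length of its gene and then scales every library to the same total. In wild-type larvae *rad-23* was the most abundant of the 5 transcripts, at 99.5 and 127.8 TPM. *uvs-1* followed at 19.1 TPM in both libraries, *xpc-1* at 13.5 and 12.4 TPM, and *csb-1* at 8.66 and 9.59 TPM. *csa-1* was the lowest, at 5.43 and 5.53 TPM. No neighbours in this order overlapped between the wild-type libraries, and the smallest distance lay between *xpc-1* and *csb-1*. The place of *xpc-1* rests on the exon length. With the length from gene start to gene end, which includes its long introns, its wild-type mean fell from 12.9 to 5.39 TPM, beside 5.40 TPM for *csa-1*.

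*rad-23* was highest and *csa-1* lowest of the 5 genes in all 6 libraries, while the 3 genes between them changed places with the strain. *rad-23* stood between percentile 92.1 and 95.3 of the protein-coding genes with a count in a library, and *csa-1* between percentile 30.8 and 43.4. In the *csb-1* strain the order ran *rad-23*, *xpc-1*, *uvs-1*, *csb-1*, *csa-1* in each library. In the *xpc-1* strain it ran *rad-23*, *uvs-1*, *csb-1*, *xpc-1*, *csa-1*, and *xpc-1*, at 6.04 and 5.86 TPM, overlapped *csa-1*, at 5.998 and 5.561 TPM. *csb-1* and *csa-1* were close together in *csb-1* replicate 1, at 8.70 and 8.07 TPM. For a targeted gene in its own strain, TPM still divides by the full exon length, whatever stretch is altered.

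**Figure D1:**
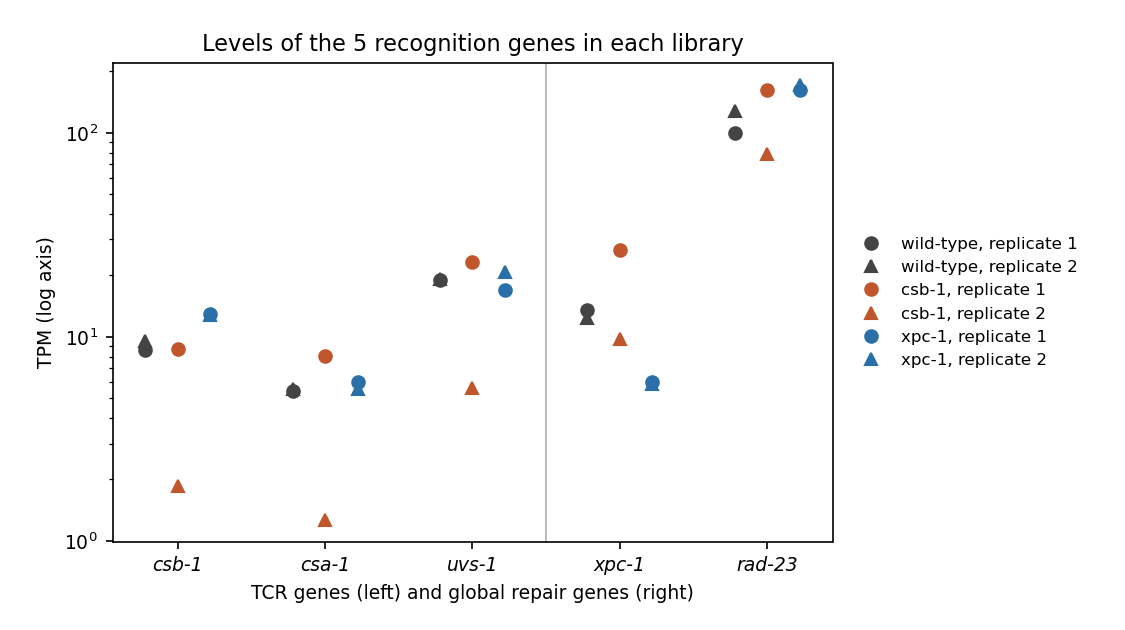
TPM of the 5 recognition genes (log axis) in each of the 6 libraries, coloured by strain, with circles for replicate 1 and triangles for replicate 2. *rad-23* was the highest in every library, from 78.7 to 171.9 TPM, and *csb-1* replicate 2 gave the lowest value of *csb-1*, *csa-1*, *uvs-1* and *rad-23*. In CPM with TMM factors, *rad-23* in that library read 155.5, above both wild-type libraries.

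The first comparison asked how recognition genes were expressed in larvae with a mutation of *xpc-1*, on which global repair depends. In the *xpc-1* strain the scaled *xpc-1* count, summed over the whole gene, fell to 0.436 of its wild-type level. The TCR gene *csb-1* rose 1.33-fold and the global repair gene *rad-23* rose 1.39-fold, while *csa-1* and *uvs-1* did not pass the test. Thus 3 of the 5 genes passed an adjusted p of 0.05 in edgeR's quasi-likelihood test of the 4 libraries, with Benjamini-Hochberg adjustment over all 17924 genes tested. Calls were common in this comparison: 37.1% of all genes passed, 20% higher and 17.1% lower. The count of 2 higher and 1 lower among the 5 genes is therefore read only gene by gene.

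*xpc-1* had a log2 fold change of -1.20 (SE 0.11, edgeR adjusted p = 0.000105), the largest change among the 5 genes. *rad-23* read 107.8 and 139.1 CPM in wild-type and 163.2 and 176.4 CPM in the *xpc-1* strain. The groups did not overlap, although the wild-type libraries themselves differed by 1.29-fold. Its log2 fold change was 0.48 (SE 0.12, edgeR adjusted p = 0.0142). *csb-1* read 28.5 and 28.7 CPM in the *xpc-1* libraries, above both wild-type libraries. Its log2 fold change was 0.41 (SE 0.11, edgeR adjusted p = 0.0201).

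The other TCR genes gave no call. *csa-1*, the ligase receptor, read 5.40 and 5.53 CPM in wild-type and 5.52 and 5.24 CPM in the *xpc-1* strain, with a log2 fold change of -0.003 (SE 0.19, edgeR adjusted p = 0.991). *uvs-1* read 25.3 and 25.4 CPM in wild-type and 20.9 and 26.0 CPM in the *xpc-1* strain, and its log2 fold change was -0.09 (SE 0.13, edgeR adjusted p = 0.619). The groups overlapped for both genes, and the differences lay within 1 standard error of 0.

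The 3 calls were not equally firm. *xpc-1* was called under 14 of 15 alternative settings, *rad-23* under 12 and *csb-1* under 11. The 15 include a fit of the 5 libraries other than *csb-1* replicate 2, which was added after seeing the data and called all 3. *rad-23* had an edgeR adjusted p of 0.101 without wild-type replicate 1, where its log2 fold change was 0.27, and 0.0689 without *xpc-1* replicate 2. *csb-1* had edgeR adjusted p-values of 0.134 without wild-type replicate 1, 0.0708 without *xpc-1* replicate 1 and 0.0797 without *xpc-1* replicate 2. All 3 calls were lost in 1 edgeR fit of all 6 libraries, which shares 1 spread with the *csb-1* libraries and called 0 genes (edgeR adjusted p = 0.948 for each of the 3, with 267 of 18421 genes at an unadjusted p under 0.05).

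**Figure D2:**
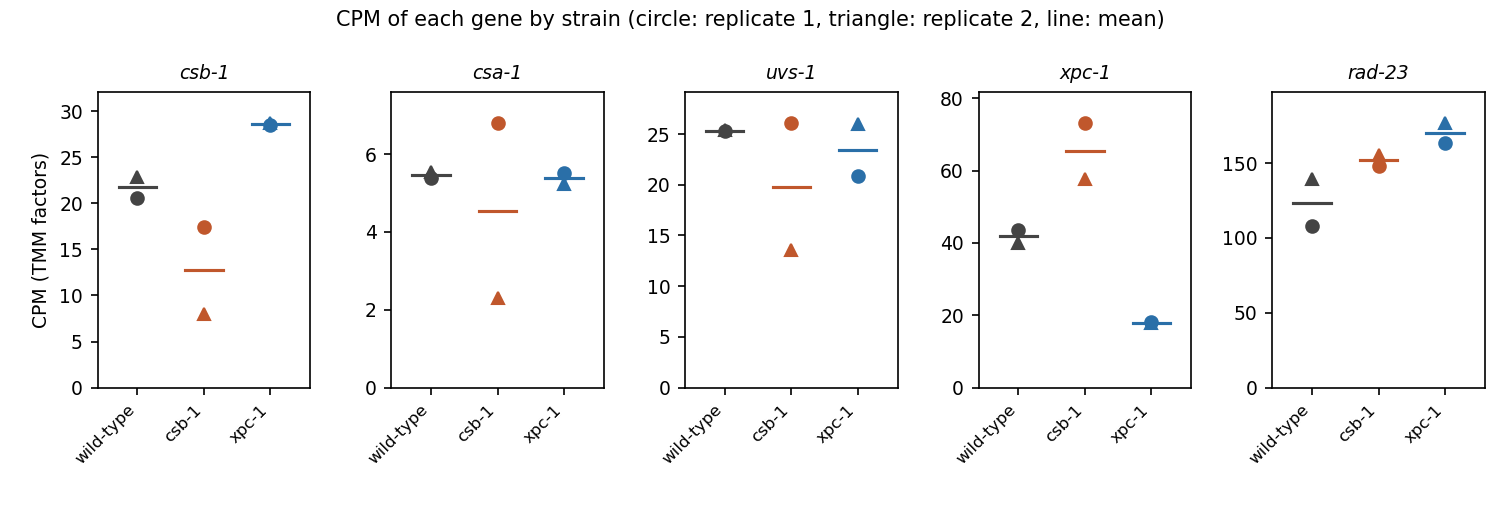
CPM with TMM factors of each gene by strain on axes that start at 0, with circles for replicate 1, triangles for replicate 2 and lines at the mean of the 2 libraries. The *xpc-1* libraries lay below the wild-type libraries for *xpc-1* (18.04 and 17.93 CPM) and above them for *csb-1* and *rad-23*, and the *csb-1* libraries lay apart from each other for the 3 TCR genes.

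The second comparison asked the same of larvae with a mutation of *csb-1*, on which TCR depends. Of the 5 genes, 0 passed the test against wild-type. In CPM with TMM factors, *csb-1* was lower in both *csb-1* libraries than in both wild-type libraries. *xpc-1* was higher and *rad-23* slightly higher, while *csa-1* and *uvs-1* overlapped. The share of all genes whose strains separate in this way was not computed, so these positions are read only gene by gene. edgeR called 0% of the genes tested, that is 0 of 17730, with 507 at an unadjusted p under 0.05. On the same libraries DESeq2 called 69 genes, and limma-voom with sample weights, fitted to all 6 libraries, called 0.

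*xpc-1* read 73.02 and 57.70 CPM in the *csb-1* libraries, against 43.5 and 40.1 CPM in wild-type. The log2 fold change was 0.65 (SE 0.30, edgeR adjusted p = 0.997). The position of replicate 2 depends on the scaling. With library size alone, *xpc-1* read 79.1 and 41.6 CPM in the *csb-1* libraries and 46.7 and 41.7 CPM in wild-type, so that only replicate 1 was higher. *rad-23* behaved alike: its TMM values of 148.0 and 155.5 CPM lay above the wild-type values, but with library size alone it read 160.3 and 112.0 CPM, and 115.7 and 144.7 CPM in wild-type, and the groups overlapped. Its log2 fold change was 0.30 (SE 0.31, edgeR adjusted p = 0.997). The scaling also moved all genes: their median log2 fold change was 0.14 with TMM factors and -0.09 with library size alone. The *xpc-1* change of 0.65 is read against that TMM median.

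The 3 TCR genes were all low in *csb-1* replicate 2 and near wild-type in replicate 1. The log2 distance of *csb-1* from its wild-type mean was -0.31 in replicate 1 and -1.43 in replicate 2. *csa-1* read 6.79 and 2.30 CPM in the *csb-1* libraries, above wild-type in replicate 1 and below it in replicate 2. *uvs-1* read 26.0 and 13.6 CPM, with the same pattern. In the 4-library edgeR fit the log2 fold changes were -0.76 (SE 0.54) for *csb-1*, -0.26 (SE 0.76) for *csa-1* and -0.35 (SE 0.46) for *uvs-1*, each with an adjusted p of 0.997. Between the *csb-1* libraries the log2 ratio of replicate 1 to replicate 2 was 1.11 for *csb-1*, 1.55 for *csa-1* and 0.93 for *uvs-1*, but 0.34 for *xpc-1* and -0.07 for *rad-23*. The median absolute ratio over all genes was 1.24 on the same scale, so that the distance for *csb-1* mRNA was no larger than that of a typical gene.

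Leaving out a *csb-1* library changed which genes passed, and in these fits the lone library is assumed to vary like the others. Without *csb-1* replicate 1, 4 of the 5 genes passed in edgeR: *csb-1* (log2 fold change -1.44), *csa-1* (-1.25) and *uvs-1* (-0.90) fell and *xpc-1* (0.46, adjusted p = 0.0154) rose, beside 53.9% of all genes. Without *csb-1* replicate 2, only *xpc-1* passed (0.82, edgeR adjusted p = 0.000351), beside 55.9% of all genes. *xpc-1* was thus the 1 gene of the 5 that passed with either *csb-1* library alone when TMM factors were used.

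**Figure D3:**
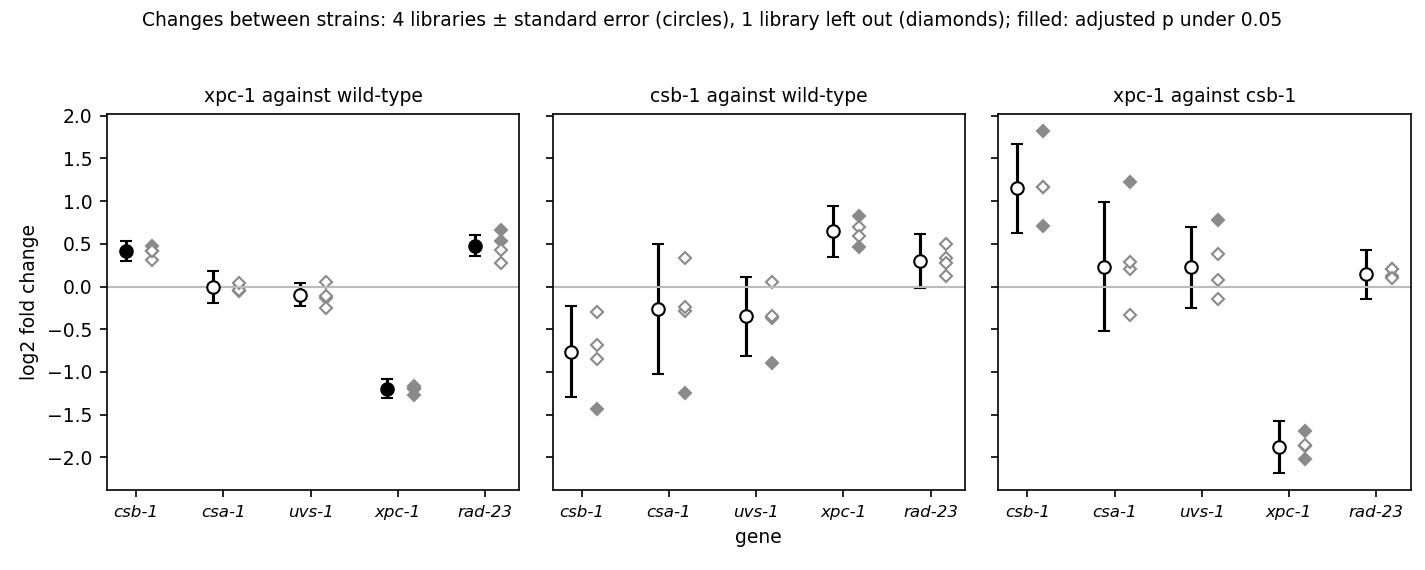
Log2 fold changes of the 5 genes in the 3 comparisons, as circles with standard errors from the 4-library edgeR fits and as diamonds with 1 library left out in turn; filled symbols have an adjusted p under 0.05. In *xpc-1* against wild-type the values for *xpc-1* stay between -1.27 and -1.17, while in *csb-1* against wild-type those for *csa-1* run from -1.25 to 0.33.

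The third comparison set the mutants against each other. Between them the targeted genes took opposite places: *csb-1* was higher in both *xpc-1* libraries than in both *csb-1* libraries, and *xpc-1* was lower. Such a separation was not particular to the targeted genes. *rad-23* was also higher in both *xpc-1* libraries, at 163.2 and 176.4 CPM against 148.0 and 155.5 CPM. The share of all genes that separate the mutants was not computed. The log2 fold change of *xpc-1* against *csb-1* larvae was 1.15 (SE 0.52) for the *csb-1* gene and -1.88 (SE 0.31) for the *xpc-1* gene, which is 2.22 times and 0.272 times the level in *csb-1* larvae. Neither passed in edgeR (adjusted p = 0.9996 for all 5 genes), which called 0 of 17395 genes, with 234 at an unadjusted p under 0.05. DESeq2 called 24 genes and limma-voom with sample weights called 0. *csa-1* (0.23, SE 0.75), *uvs-1* (0.23, SE 0.47) and *rad-23* (0.14, SE 0.29) had log2 fold changes smaller than their standard errors. Without *csb-1* replicate 2, *csb-1* (0.71, edgeR adjusted p = 0.0212) and *xpc-1* (-2.02, edgeR adjusted p = 0.00108) passed, beside 17.7% of all genes. Without *csb-1* replicate 1, 4 of the 5 genes passed, all but *rad-23*, beside 63.3% of all genes. The mutant comparisons share the wild-type libraries with each other and the mutant libraries with this one, so their values are not independent.

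Ratios within a library do not depend on the scaling between libraries. The TPM of *xpc-1* over that of *csb-1* was 1.56 and 1.29 in wild-type, 3.07 and 5.28 in the *csb-1* strain, and 0.466 and 0.460 in the *xpc-1* strain. The 3 strains did not overlap. Both genes of this ratio are targeted, so it includes the lower counts of each gene in its own strain. No test was run on these ratios, since an exact permutation of 2 against 2 libraries cannot give a two-sided p below 0.333. The ratio of *rad-23* to *xpc-1*, the partners in global repair, was 7.38 and 10.3 in wild-type, 6.04 and 8.03 in the *csb-1* strain, and 27.0 and 29.3 in the *xpc-1* strain. Among the TCR genes that were not targeted, the ratio of *uvs-1* to *csa-1* stayed between 2.84 and 4.45 in the 6 libraries.

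The summed TPM of the global repair genes exceeded that of the TCR genes in every library. The ratio of the sums was 3.75 ± 0.486 (SD, n = 2) in wild-type, 7.41 ± 3.82 (SD, n = 2) in the *csb-1* strain and 4.62 ± 0.093 (SD, n = 2) in the *xpc-1* strain. The *csb-1* libraries differed most, at 4.71 and 10.1, and replicate 1 lay beside the *xpc-1* libraries. *rad-23* made up most of the global repair sum in each library. The high ratio of *csb-1* replicate 2 came with the lowest sums of both routes, 8.75 TPM for the TCR genes, against 33.2 to 40.04 TPM in the other libraries, and 88.5 TPM for the global repair genes, against 113.04 to 188.5 TPM. With the targeted genes left out, the ratios of *rad-23* to the sum of *csa-1* and *uvs-1* were 4.62, 8.29 and 6.80 in the same order of strains.

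**Figure D4:**
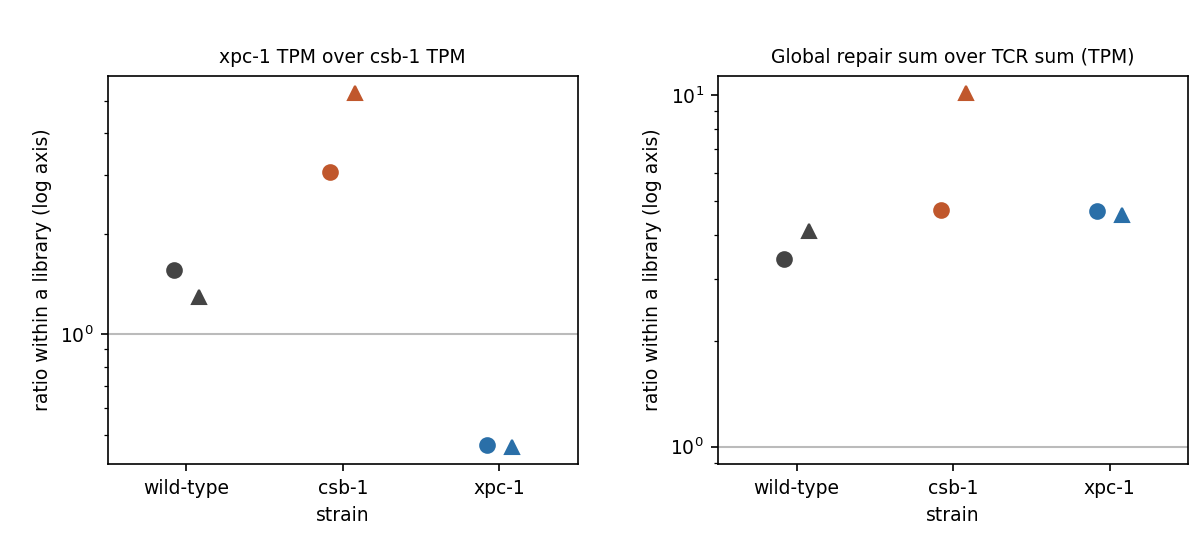
Ratios within each library on log axes, *xpc-1* TPM over *csb-1* TPM (left) and summed TPM of the global repair genes over that of the TCR genes (right), with circles for replicate 1, triangles for replicate 2 and grey lines at 1. The left ratio, of the genes mutated in the strains themselves, separates the 3 strains, from 0.460 to 5.28, and the right ratio lies above 1 in all 6 libraries.

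Genes that work with the 5 recognition genes were counted in 4 lists. In *xpc-1* larvae, 10 of the 12 tested genes of RNA polymerase II and its elongation factors rose and 0 fell, beside 20% of all genes called higher and 17.1% lower, and the median log2 fold change was 0.47, beside -0.02 over all genes tested. *rtfo-1*, the Rtf1 elongation factor, read 111.5 and 108.5 CPM in wild-type and 190.3 and 174.0 CPM in the *xpc-1* strain (log2 fold change 0.75, edgeR adjusted p = 0.00037). *rpb-4*, a subunit of the polymerase, rose by 0.62 (edgeR adjusted p = 0.00175). The 2 genes not called were the polymerase genes *ama-1* (0.27, edgeR adjusted p = 0.151) and *rpb-2* (0.12, edgeR adjusted p = 0.345). *spt-6*, the remaining gene of the list, was not matched to the table.

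Of 11 genes of ubiquitin ligases and their partners, including cullin-4, its adaptor DDB-1 and the COP9 signalosome, 7 rose and 0 fell, beside the same 20% and 17.1% of all genes, with a median of 0.44. The genes of cullin-4 (log2 fold change 0.21, edgeR adjusted p = 0.139) and DDB-1 (-0.12, edgeR adjusted p = 0.298) were not among the 7. *ned-8*, the ubiquitin-like protein that activates cullins, read 42.8 and 42.9 CPM in wild-type and 72.0 and 72.4 CPM in the *xpc-1* strain (log2 fold change 0.77, edgeR adjusted p = 0.000294). *rbx-1*, the RING subunit, rose by 0.61 (edgeR adjusted p = 0.00162). *csa-1*, which as a receptor joins such a ligase, stood at -0.003 in the same fit.

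Of 9 genes for RAD-23 partners and other shuttle factors of the proteasome, 4 rose and 0 fell, beside 20% and 17.1% of all genes, with a median of 0.25. This count dropped to 2 with upper-quartile factors, with the RLE scaling of DESeq2 in edgeR and with limma-voom. *ddi-1*, another shuttle factor, had a log2 fold change of 0.82 (edgeR adjusted p = 0.000304), and *ufd-2*, a ubiquitin chain elongation factor, 0.53 (edgeR adjusted p = 0.00155). Of the 16 genes for the shared steps after recognition, 2 rose and 0 fell, with a median of 0.15, and this share of genes called higher was below the 20% of all genes. These were *rpa-1* (log2 fold change 0.66, edgeR adjusted p = 0.000554) and *rpa-2* (0.52, edgeR adjusted p = 0.00495), subunits of the single-strand binding protein RPA, which also serves replication. Several marker sums, in CPM from library size alone, also differed between these strains. For neurons the sums overlapped, at 464.2 and 478.8 CPM in wild-type and 424.8 and 467.7 CPM in the *xpc-1* strain. Those for intestine did too (40.1 and 36.1 CPM, then 41.6 and 38.7 CPM). The molting sum given above was higher in both *xpc-1* libraries than in wild-type, as were the epidermis sum (206.1 and 210.02 CPM in wild-type, 318.1 and 353.1 CPM in the *xpc-1* strain) and the germ cell sum (40.5 and 34.1 CPM, then 59.6 and 54.97 CPM). The sums for body wall muscle (5346 and 5685 CPM, then 3932 and 3929 CPM) and pharynx (1534 and 1617 CPM, then 1013 and 1004 CPM) were lower, and the share of ribosomal protein genes went from 10.8% and 11.03% to 7.70% and 8.23%. The part of these shifts in the counts was not tested. The epidermis sum holds 2 genes and, like the molting sum, was high in *csb-1* replicate 1 (517.3 CPM) and low in replicate 2 (48.0 CPM).

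The list counts depend on the library set. With 1 library left out in turn, 5 to 8 of the polymerase genes, 5 to 7 of the ligase genes, 2 to 4 of the shuttle genes and 2 to 3 of the shared genes rose, and 0 of each did in the 6-library fit. With the replicate number as a block, 11, 10, 6 and 6 genes of these lists rose, in the same order, and with no filter on low counts 4 of the shared genes did. The list medians for *xpc-1* against wild-type stayed above 0 with each of the scalings tried.

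In the comparisons with the *csb-1* strain, 0 of the 48 genes of the 4 lists passed in the 4-library edgeR fits, and the calls depended on which *csb-1* library was kept. Against wild-type, 21 of the 48 genes were higher and 4 lower without *csb-1* replicate 1, beside 24.3% and 29.6% of all genes. Without *csb-1* replicate 2, 31 were higher and 1 lower, beside 27.5% and 28.3% of all genes. The polymerase genes changed most between these fits, with 3 higher without replicate 1 and 10 higher without replicate 2. The counts were 5 and 10 for the ligase genes, 5 and 3 for the shuttle genes, and 8 in each fit for the shared genes. The list medians against wild-type lay between 0.46 and 0.53 with all 4 libraries, beside 0.14 over all genes, and between 0.25 and 0.28 with library size alone, beside -0.09. Without *csb-1* replicate 1 they lay between 0.23 and 0.63, and without replicate 2 between 0.27 and 0.66. Between the mutants, 10 of the 48 genes were higher and 11 lower in the *xpc-1* strain without *csb-1* replicate 1, beside 34.4% and 28.9% of all genes. Without *csb-1* replicate 2, 1 was higher and 3 lower, beside 10.8% and 6.96% of all genes.

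**Figure D5:**
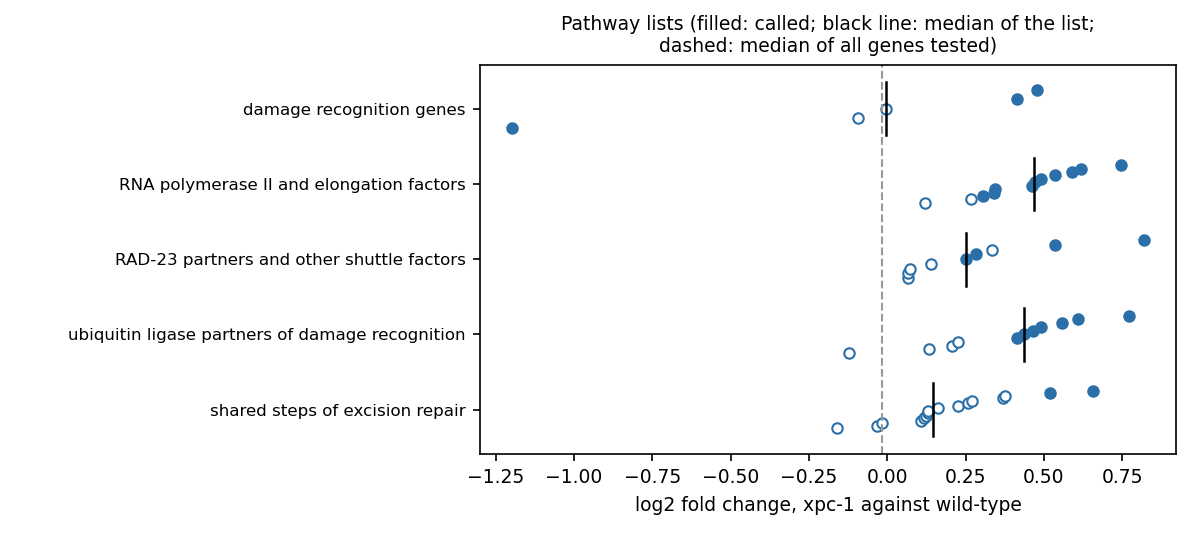
Log2 fold change of each tested gene of the 4 lists and of the 5 recognition genes in *xpc-1* against wild-type larvae, with filled circles for an edgeR adjusted p under 0.05, a black line at the median of each list and a dashed line at the median of all genes tested, -0.02. The called genes of the 4 lists all lie to the right of the dashed line, up to 0.82 for *ddi-1*, and *xpc-1* lies to the left at -1.20.

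The nearest genes on the chromosome, chosen by position, were examined beside the targeted genes. *Y76B12C.6* ends 122 bases before *xpc-1* and had a log2 fold change of 0.33 in *xpc-1* larvae (edgeR adjusted p = 0.0498). *cpsf-1*, a cleavage and polyadenylation factor gene, lies 44 bases after *xpc-1* on the other strand and stood at 0.24 (edgeR adjusted p = 0.0535). The lower level of *xpc-1* was thus not seen in the genes beside it. Next to *csb-1*, *F53H4.6* lies 685 bases and *F53H4.4* 492 bases away, and neither passed in *csb-1* larvae (edgeR adjusted p = 0.997 for each). *F53H4.6* read 5.73 and 5.40 CPM in wild-type and 11.1 and 8.33 CPM in the *csb-1* strain, higher in both libraries. *F53H4.4* read 4.204 and 5.928 CPM in wild-type and 6.19 and 3.67 CPM in the *csb-1* strain, where the groups overlapped. *rad-23* lies 189 bases from *rpn-12*, a proteasome subunit gene on the other strand, which stood at 0.27 in *xpc-1* larvae (edgeR adjusted p = 0.085).

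The genes whose pattern over the 6 libraries was most like each recognition gene were sought among 11000 genes by the root mean square difference of centred log2 CPM. This is a description over libraries that share their strains and depth. For *csa-1* the nearest were *F42C5.9* (0.0562) and *osm-6* (0.0618), an intraflagellar transport gene. For *uvs-1* they were *arl-13* (0.0453), a ciliary GTPase gene, and *syd-1* (0.0652), a synapse assembly gene. *csb-1* was nearest to *F48E8.8* (0.0745) and an annotated pseudogene without a symbol, WBGene00194650 (0.114). *rad-23* was nearest to *npp-11* (0.0664), a nuclear pore gene, and *F21A9.2* (0.0684). The distances were largest for *xpc-1*, whose nearest genes were *hil-1* (0.351), a linker histone gene, and *F18E3.11* (0.443). Among the recognition genes themselves, *csa-1* and *uvs-1* were the most alike pair (0.216) and *csb-1* and *xpc-1* the least alike (1.29). *csb-1* and *xpc-1* are the mutated genes of the strains compared. Their distances therefore include the lower counts of each gene in its own strain.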

How the data were processed

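The RNA-seq libraries were grouped by strain from the labels, 2 for each of the 3 strains. The authors used STAR for alignment, removed improper pairs and alignments under a mapping quality of 30, and counted the remainder with featureCounts 2.0.4 on exons of the WBcel235 annotation, which the file headers give as Ensembl release 105. The deposited values are raw counts of reads per gene, with the summed exon length of each gene. Per the file headers no strand option was set, although the libraries were stranded, and each mate of a pair was counted. Among counts of 1 to 20, 62.6% to 76.3% were even, so a count is not an independent molecule.

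Counts and exon length gave TPM, and CPM of single genes used TMM factors of all 6 libraries unless stated. The summed CPM of the marker, molting and vitellogenin genes used library size alone. For each comparison, edgeR 4.0.16 (quasi-likelihood test, R 4.3.3) was fitted to its 4 libraries, with genes at 10 or more counts in at least 2 of them and calls were made at 0.05 after Benjamini-Hochberg adjustment. The members, the lists and this 4-library design were chosen with earlier results of these data known, among them that a fit of all 6 libraries called no gene. That fit was kept as an alternative, with DESeq2 1.42.0, limma 3.58.1 (voom with sample weights), other scalings and filters, halved counts, the replicate number as a block and each library left out. A fit of the 5 libraries other than *csb-1* replicate 2, and CPM of the recognition genes from library size alone in each library, were added after seeing the data. The added fit is included in the 15 settings per comparison.

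No library pair agreed within counting noise, so each library was used as 1 replicate. Genes named are the 5 recognition genes, the 2 called genes with the largest change in each list, the 2 genes most like each member among genes with a mean of at least 5 CPM, and neighbours by position. Some genes of the polymerase and ligase lists that were not called are also named. Symbols were found for 44017 of the 46904 genes. Exon sequences were not used here.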

Additional observations from a re-analysis of the deposited data

Results flagged for a closer look

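The targeted genes moved in opposite directions in the mutants in CPM with TMM factors. For *csb-1*, both *xpc-1* libraries lay above and both *csb-1* libraries below the wild-type libraries in CPM with TMM factors, and the log2 fold change between the mutants was 1.15. For *xpc-1* the places were exchanged, and the value was -1.88. The difference between the mutants was tested in edgeR with the 4 mutant libraries and did not pass (adjusted p = 0.9996 for each gene). With library size alone, *xpc-1* in *csb-1* replicate 2 read 41.6 CPM, level with the 41.7 CPM of wild-type replicate 2, so the opposite movement of this gene then rests on *csb-1* replicate 1. In TPM the pattern did not hold in every library. *csb-1* in *csb-1* replicate 1 read 8.70 TPM, between the wild-type values of 8.66 and 9.59 TPM. *xpc-1* in *csb-1* replicate 2 read 9.80 TPM, below the wild-type values of 13.5 and 12.4 TPM. The share of all genes with such opposite places was not computed.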

How the results depend on the processing

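Over 225 alternative values of a log2 fold change, 193 kept their direction and side of the threshold, 14 passed it newly, 8 no longer passed and 10 changed sign, and the changes of sign were all in *csa-1* and *uvs-1*. The fit of all 6 libraries called 0 of the 5 genes and 0 genes in *xpc-1* against wild-type, where the spread is shared with the *csb-1* libraries. DESeq2 called 69 genes in *csb-1* against wild-type and 24 in *xpc-1* against *csb-1*. The fit of 5 libraries, chosen after seeing the data, called 1 of the 5 genes and 9641 genes in *csb-1* against wild-type, with log2 fold changes of 0.33 for *csa-1* and 0.054 for *uvs-1*, and 2 of the 5 genes and 3662 genes in *xpc-1* against *csb-1*, with -0.34 for *csa-1* and -0.15 for *uvs-1*; it leaves out *csb-1* replicate 2. With 1 library left out in turn, 1 to 3 of the 5 genes were called in *xpc-1* against wild-type, 0 to 4 in *csb-1* against wild-type (0 to 9734 genes) and 0 to 4 in *xpc-1* against *csb-1* (0 to 10691 genes). The log2 fold change then ran from -0.051 to 0.037 for *csa-1* and -0.26 to 0.056 for *uvs-1* in *xpc-1* against wild-type, from -1.25 to 0.33 and -0.90 to 0.055 in *csb-1* against wild-type, and from -0.33 to 1.22 and -0.15 to 0.78 in *xpc-1* against *csb-1*. The ratio of the global repair to the TCR sum became 4.62 in wild-type and 6.80 in the *xpc-1* strain without the targeted genes, and 5.39 in the *xpc-1* strain with the gene length from start to end. Upper-quartile factors gave 2992 higher and 3757 lower genes in *xpc-1* against wild-type, beside 3591 and 3062 with TMM factors. Where no construction of an alternative is named, the cause was not tested.

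Whether the replicate numbers pair the libraries was not tested. The deviations of same-numbered libraries correlated at 0.126 between wild-type and *xpc-1*, at -9.21e-05 between wild-type and *csb-1* and at 0.0169 between the mutants. With the replicate block, 3 of the 5 genes and 8850 genes were called in *xpc-1* against wild-type, beside 6653 genes without it. In each of the other comparisons 0 genes were called with the block. The common spread between replicates in edgeR (biological coefficient of variation) was 0.0878 with the block and 0.145 without it in *xpc-1* against wild-type. It was 0.758 and 0.726 in *csb-1* against wild-type, and 0.755 and 0.727 between the mutants. By Pearson correlation in place of the root mean square difference, the nearest genes were different for all members but *rad-23*, which kept 1 of 2. With 2 libraries per strain and 80 counts of *csa-1* in *csb-1* replicate 2, small changes of this gene were not detectable.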
